A study of Mus musculus with 6 samples.

Results

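The 10 genes described here encode transcription factors that mark the mesenchymal lineage: Twist1, Twist2, Prrx1, Prrx2, Snai1, Snai2, Zeb1, Zeb2, Tcf21 and Runx2. They were chosen by gene symbol and make up 10 of the 21837 genes, and 14 of the 27794 rows, of a table of RefSeq transcript expression. For a gene with several rows, the row with the highest mean over the 8 columns of values was used. The cells were mouse embryonic fibroblasts (MEFs), wildtype and of mixed C57BL/6x 129 background, grown as primary cultures from embryos of 13.5 days and used at passage 4. RNA was sequenced from untreated MEFs and from MEFs given TNFα at 20 ng/ml for 1.5, 6 or 24 hr, and in untreated MEFs the histone mark H3K4me3 was profiled by ChIP-seq against an input library. Each time had 1 library, so no difference below was tested and none has a p-value. The embryos were littermates, and nothing in the labels ties a time to a separate culture.

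Mesenchymal cells form the connective tissues of the embryo and move as single cells, unlike the joined sheets of epithelium. Twist, Snai and Zeb proteins bind E-box motifs in DNA and are known above all as repressors of epithelial genes such as the cell adhesion gene Cdh1. Prrx proteins are homeodomain factors of limb and face mesenchyme, Runx2 directs bone formation and Tcf21 marks fibroblast precursors of the heart, kidney and lung. TNFα is an inflammatory cytokine that acts through the transcription factor NF-κB. H3K4me3 is a histone mark of gene starts that are active or poised.

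Every level below is an RPKM (reads per kilobase of transcript, scaled to the total reads of the column) on the scale of 1 whole read, which is the deposited value divided by 41. Each library has 2 columns, R1 and R2, whose meaning is not stated. Their mean was used, and they were not treated as replicates. Column totals, solved from the deposited values, ran from 36719296 to 51051361. They exceed the number of mapped sequences per sample that the paper gives, and what they count is not stated. Reads on RefSeq transcripts came to between 17.9% and 37.2% of these totals, with the lowest shares at 6 hr. The libraries differed as a whole: over 10102 coding genes at or above the median level of all coding genes (0.566 RPKM), the median log2 ratio to untreated was 0.52 after 1.5 hr, -0.72 after 6 hr and 0.16 after 24 hr. They also differed with base composition. When the coding genes were divided into 20 bins by the GC content of their longest transcript, the median log2 ratio in the lowest bin was 1.39 at 1.5 hr and 0.95 at 24 hr, and in the highest bin it was -0.70 and -0.94. The members' changes are therefore given as deposited, relative to the median coding gene, and relative to the coding genes of like GC content (the 495 or 496 genes of its bin). A change is called when it is at least 2-fold. Error ranges are 95% intervals of counting error alone, from the number of reads (exact binomial for ratios, exact Poisson for levels).

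In untreated MEFs 9 of the 10 genes were expressed above the median coding gene and Tcf21 was listed at 0. The order was Prrx2 (11.4 RPKM), Prrx1 (9.78), Snai1 (9.65), Twist2 (6.70), Zeb1 (5.42), Snai2 (5.12), Runx2 (4.98), Twist1 (3.47) and Zeb2 (2.03). The levels of Prrx1 and Snai1 differed by less than their counting intervals, as did those of Zeb1 and Snai2 and those of Snai2 and Runx2. Prrx2 stood higher than 90.5% of the 20204 coding genes and Zeb2 higher than 69.05%. Prrx2 was the member whose 2 columns differed most, at 12.7 RPKM in R1 and 10.2 in R2, so its place above Prrx1 (9.42 and 10.2) holds for R1 and not clearly for R2. Tcf21 had 0 reads in all 8 columns, which allows at most 3 reads in a column. No member shares a 41-base stretch of its longest transcript with its paralog, so reads of the pairs can be told apart. Exons of genes on the opposite strand overlap 6.87% of the exon bases of Runx2 and 3.55% of those of Zeb2, and whether the counting used strand is not stated.

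**Figure D1:**
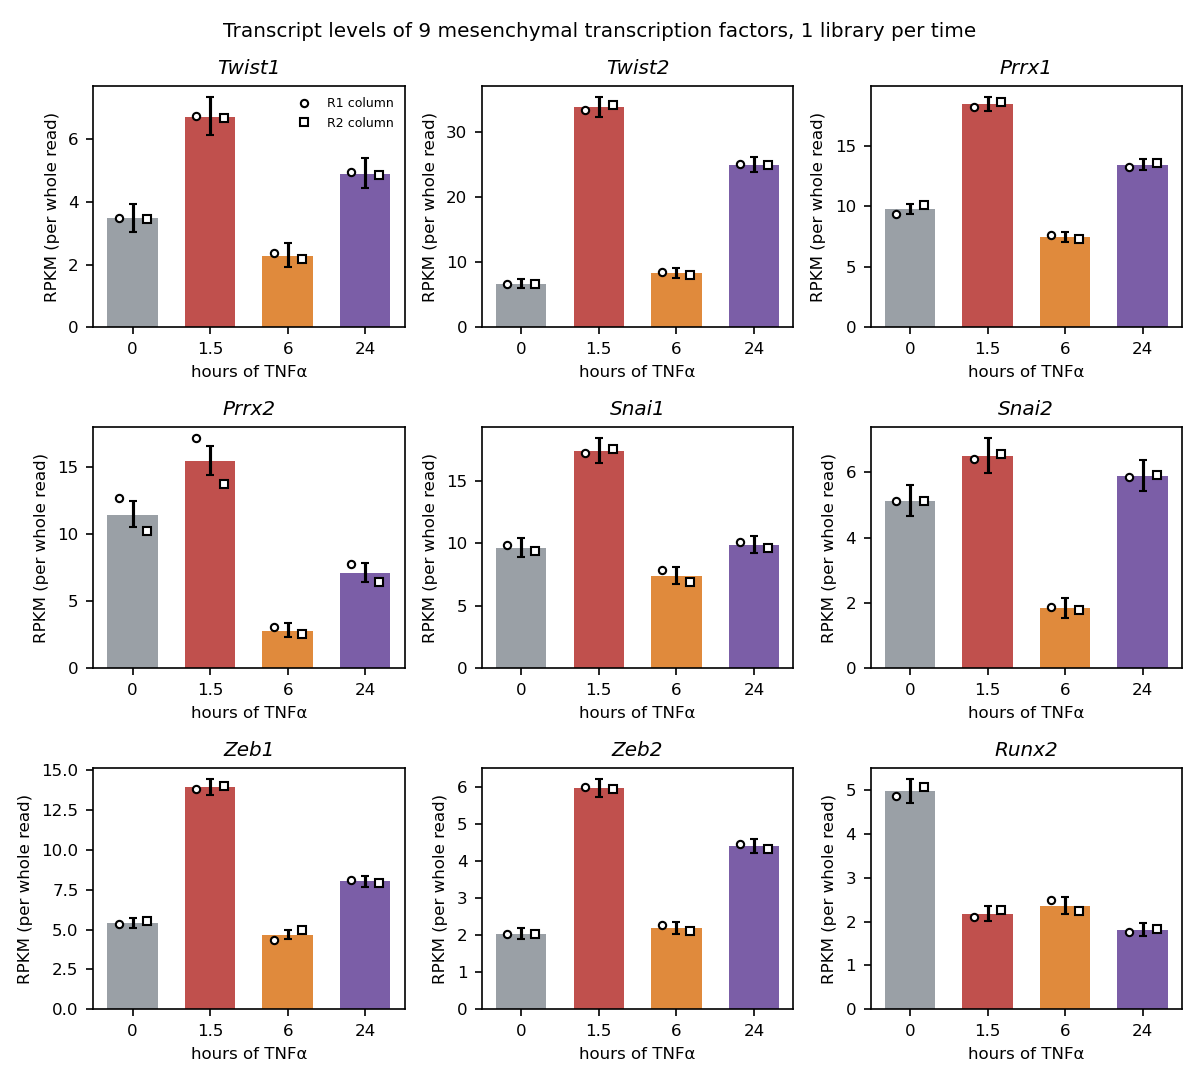
Transcript levels of the 9 expressed members in RPKM (vertical axis, a separate linear scale from 0 in each panel) against hours of TNFα. Bars are the mean of both columns, error bars are 95% counting intervals, open circles and squares are the R1 and R2 columns; Twist2 reached 33.9 RPKM at 1.5 hr and Runx2 was highest in the untreated library at 4.98 RPKM.

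H3K4me3 in untreated MEFs lay at an annotated start of all 9 expressed members and of no start of Tcf21. The peak list holds 11157 peaks on mm9, with a median length of 3.19 kb and a lowest fold enrichment of 20. A peak lay within 1 kb of the start farthest 5′ for 7 of 10 members (Twist1, Twist2, Prrx1, Snai1, Snai2, Zeb1 and Zeb2), beside 85.2% of 9913 coding genes at or above the median level and 52.1% of all 19647 coding genes with an annotated start. Counting any annotated start, it was 9 of 10 members, beside 88.6% and 54.4%. Counted by any start, the share of marked members was near that of other expressed genes. The nearest peak to the single start of Tcf21 (chromosome 10, minus strand) was 87.2 kb away.

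The peaks of the members were long. The longest peak at a start of each of the 9 marked members had a median of 7.32 kb, against 3.57 kb for the longest peak at the starts of 8787 marked coding genes at or above the median level. For 7 of the 9 it exceeded 5.43 kb, the length that 10% of all peaks exceed, as it did for 13.5% of those coding genes. Prrx1 had the longest, chr1:165234877-165245984 (11.1 kb, 4894 tags, 80.4-fold enrichment over background), which spread 8.96 kb into the gene from its start. The Twist1 peak, chr12:34640346-34649803 (9.46 kb, 3390 tags), covered the whole of this short gene, and the Twist2 peak, chr1:93695648-93702962 (7.32 kb, 3108 tags), ended 4.92 kb into the gene. The peaks of Snai1 (chr2:167363273-167369994, 6.72 kb, 2523 tags) and Snai2 (chr16:14704391-14710892, 6.502 kb, 2531 tags) also reached past the gene's end. Zeb1 had a peak of 5.05 kb with 2141 tags on chromosome 18. Zeb2 had a short peak at its start farthest 5′, chr2:44970837-44973546 (2.71 kb, 591 tags), and a long one at the starts that follow, chr2:44961628-44969344 (7.72 kb, 2688 tags).

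**Figure D2:**
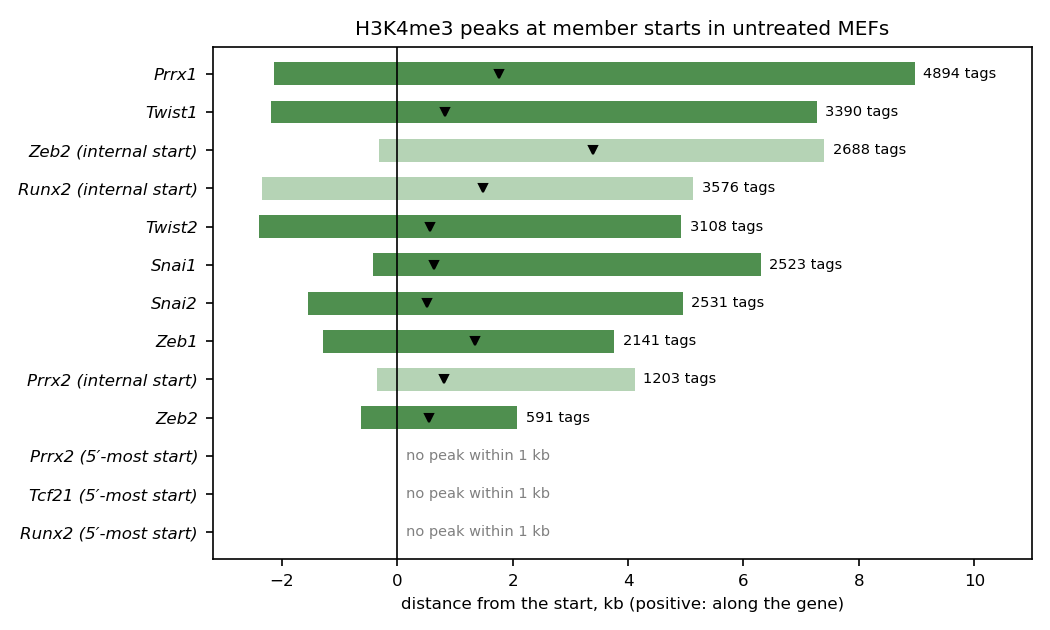
H3K4me3 peaks of untreated MEFs drawn to scale from the annotated start (vertical line at 0, horizontal axis in kb, positive along the gene). Dark bars are peaks at the start farthest 5′, pale bars are peaks at a later start, triangles are peak summits; the bars run from 2.71 kb at the first Zeb2 start to 11.1 kb at Prrx1, and the starts of Prrx2, Tcf21 and Runx2 farthest 5′ have no peak.

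Prrx2 and Runx2 were marked at a later start and not at their first. For Prrx2 (chromosome 2, plus strand, 30690492 to 30736761) the first start lay 6.05 kb from the nearest peak, which was outside the gene. A separate peak inside the gene, chr2:30700233-30704694 (4.46 kb, 1203 tags), held the start at 30700579. For Runx2 (chromosome 17, minus strand, 44632936 to 44951746) the distal start at 44951746 was 36.1 kb from the nearest peak. The peak chr17:44868468-44875949 (7.48 kb, 3576 tags) covered the proximal start, and its tag density of 478 per kb exceeded that of 96.2% of all peaks. A second peak inside the gene, chr17:44913085-44915693 (2.61 kb, 712 tags), lay at no annotated start. The 2 Runx2 starts are known as separate promoters that give proteins with different first residues.

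The 200 bases before a start are shown for the distal Runx2 start, which had no peak, and for Twist1, Twist2 and Snai1, whose starts lay in long peaks. They were read from the mm9 genome at GENCODE starts and are written 5′ to 3′ on the strand of the gene, and none holds an annotated exon. Capitals mark the κB motif (the general form of the site that NF-κB binds: GGG, then 5 bases of any kind, then CC), CAGGTG (the E-box that Snai and Zeb proteins bind) and TATAAA (the TATA box), each on either strand, so that CACCTG is CAGGTG on the opposite strand. The windows are chr17:44951747-44951946 (Runx2 distal), chr12:34642336-34642535 (Twist1), chr1:93697838-93698037 (Twist2) and chr2:167363495-167363694 (Snai1).
Runx2 distal, no peak: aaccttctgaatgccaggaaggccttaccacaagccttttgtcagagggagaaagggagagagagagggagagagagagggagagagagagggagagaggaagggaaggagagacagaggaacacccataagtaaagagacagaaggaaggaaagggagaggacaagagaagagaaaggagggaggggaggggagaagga
Twist1, in a peak: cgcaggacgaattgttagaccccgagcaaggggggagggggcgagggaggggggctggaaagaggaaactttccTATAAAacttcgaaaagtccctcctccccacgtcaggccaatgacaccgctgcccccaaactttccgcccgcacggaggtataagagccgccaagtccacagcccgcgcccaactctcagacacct
Twist2, in a peak: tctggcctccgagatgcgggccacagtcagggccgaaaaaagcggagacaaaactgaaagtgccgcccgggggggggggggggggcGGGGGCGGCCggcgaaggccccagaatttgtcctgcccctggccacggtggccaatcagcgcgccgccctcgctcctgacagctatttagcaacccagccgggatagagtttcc
Snai1, in a peak: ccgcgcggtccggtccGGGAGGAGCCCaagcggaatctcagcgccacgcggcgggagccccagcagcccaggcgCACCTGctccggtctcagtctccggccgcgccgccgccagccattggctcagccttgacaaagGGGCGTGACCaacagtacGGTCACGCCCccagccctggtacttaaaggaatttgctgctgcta
At first starts without a peak, the windows of Runx2, Prrx2 and Tcf21 held 0, 3 and 6 CpG. At first starts with a peak, Twist1, Twist2, Snai1 and Zeb1 held 13, 16, 20 and 15, Zeb2 held 7, and Prrx1 and Snai2 held 3 each. The median over 22235 promoters was 7. The windows with and without a peak thus overlapped in CpG count. The κB motif was found at the first start of 4 of 10 members (Twist2, Snai1, Snai2 and Tcf21) beside 45.01% of all promoters. CAGGTG was found for Snai1, 126 to 121 bases upstream, and for Zeb1, beside 13.7% of all promoters. TATAAA was found for Twist1, 126 to 121 bases upstream, beside 10.0%. GGGCGG, the core of the GC box that Sp1 binds, was found for 3 members (Twist1, Twist2 and Snai2) beside 38.1%, and in Twist2 it overlaps the κB match. A match says only that the letters are there.

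After TNFα, 1 member rose on every scale at 1.5 and 24 hr (Twist2) and 1 fell on every scale at those times (Runx2). Prrx2 fell on every scale at 6 hr. The share of coding genes past 2-fold on all 3 scales was not counted, so these calls have no background beside them. Of the other 6 members, Prrx1 did not reach 2-fold on any of the 3 scales, and the calls of the rest depended on the scale. At 1.5 hr, 3 of 9 members with values rose as deposited (Twist2, Zeb1 and Zeb2), beside 31.7% of the 10102 coding genes, and 1 fell (Runx2), beside 8.04%. At 6 hr none rose, beside 1.91%, and 3 fell (Prrx2, Snai2 and Runx2), beside 31.2%. At 24 hr 2 rose (Twist2 and Zeb2), beside 17.2%, and 1 fell (Runx2), beside 12.3%. The median log2 ratio of the 9 members was 0.92, -0.39 and 0.46 at the 3 times, against 0.52, -0.72 and 0.16 for the coding genes. These shares are too close to the background to read anything from the counts alone. All 3 times were compared with the same untreated library.

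Relative to the median coding gene the counts were 2 higher and 1 lower at 1.5 hr, where 14.5% and 17.9% of coding genes passed, and 1 higher and 1 lower at 6 hr, where 7.43% and 4.54% passed. At 24 hr they were again 1 and 1, where 12.8% and 15.9% passed. Relative to coding genes of like GC content, 4 members were higher at 1.5 hr (Twist1, Twist2, Prrx2 and Snai1), beside 10.7% of 9917 coding genes, and 1 was lower (Runx2), beside 10.7%. At 6 hr 1 was higher on this scale (Twist2), beside 5.39%, and 2 were lower (Prrx2 and Snai2), beside 3.69%. At 24 hr 2 were higher (Twist1 and Twist2), beside 10.3%, and 1 was lower (Runx2), beside 9.19%.

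**Figure D3:**
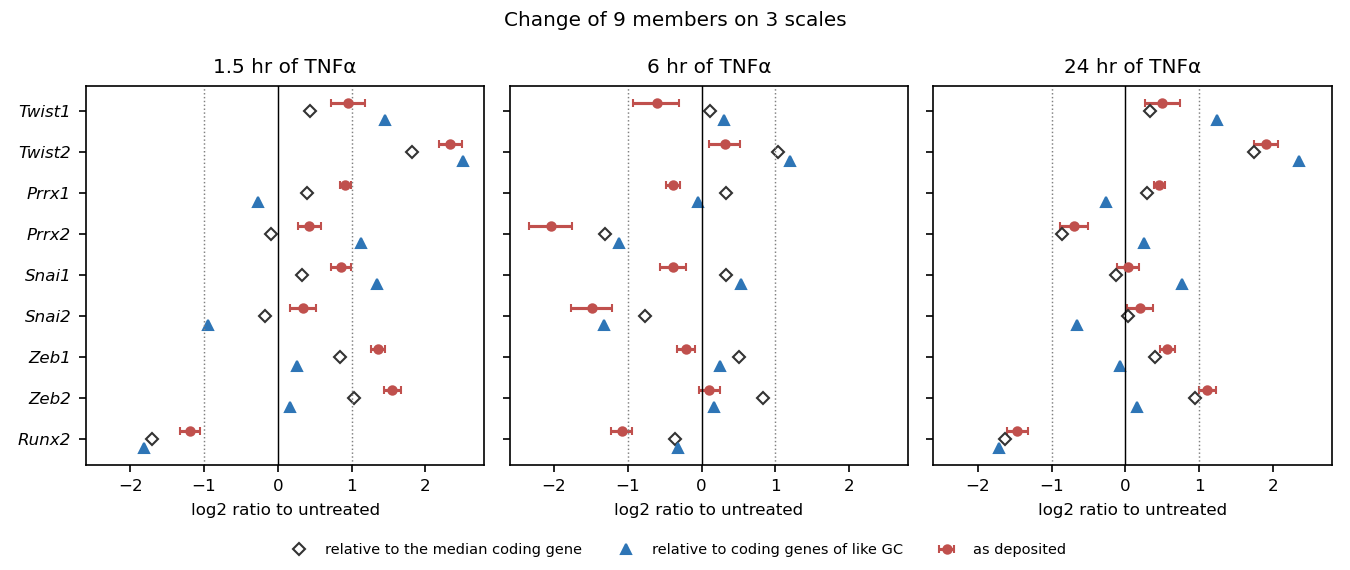
Log2 ratio to untreated of the 9 expressed members (rows) at each time (panels). Red circles are values as deposited with 95% counting intervals, open diamonds are relative to the median coding gene, blue triangles are relative to coding genes of like GC content, and dotted lines mark 2-fold; Twist2 lies right of 1.7 and Runx2 left of -1.1 on all 3 scales at 1.5 and 24 hr.

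Twist2 and Twist1 are basic helix-loop-helix factors that block the maturation of bone and muscle cells. Twist2 had 6.70 RPKM untreated, 33.9 after 1.5 hr, 8.32 after 6 hr and 25.02 after 24 hr. It was high at 1.5 and 24 hr and near its untreated level at 6 hr, from 379, 1997, 413 and 1667 reads. The rise was 5.05-fold at 1.5 hr (log2 2.34, 2.18 to 2.50) and 3.73-fold at 24 hr (log2 1.90, 1.74 to 2.07), and the 2 columns gave 2.32 and 2.35 at 1.5 hr and 1.91 and 1.90 at 24 hr. Over every scaling, column and pseudocount tried, the log2 ratio stayed between 1.82 and 2.51 at 1.5 hr and between 1.74 and 2.36 at 24 hr. The 6 hr ratio was 0.31 as deposited, 1.03 relative to the median coding gene and 1.20 relative to genes of like GC content, where it exceeded 98.0% of its bin.

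Twist1 had 3.47 RPKM untreated, 6.72 after 1.5 hr, 2.28 after 6 hr and 4.90 after 24 hr. Like Twist2 it was higher at 1.5 and 24 hr than at 6 hr, as was the median coding gene (log2 0.52, -0.72 and 0.16). At 6 hr Twist2 lay above its untreated level and Twist1 below. As deposited the Twist1 log2 ratios of 0.95, -0.61 and 0.50 did not reach 2-fold at any time. Relative to the median coding gene they were 0.43, 0.11 and 0.33. Twist1 is GC rich (59.7% of its longest transcript), and relative to genes of like GC content the values were 1.45, 0.30 and 1.24.

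Prrx1 had 9.78 RPKM untreated, 18.5 after 1.5 hr, 7.49 after 6 hr and 13.5 after 24 hr. Its log2 ratios of 0.92, -0.39 and 0.46 were under 2-fold. They were 0.40, 0.34 and 0.30 relative to the median coding gene and -0.27, -0.05 and -0.27 relative to genes of like GC content. Of its 3 rows, the shortest gave 0.50, -0.54 and 0.04. Prrx2 had 11.4 RPKM untreated, 15.4 after 1.5 hr, 2.79 after 6 hr and 7.07 after 24 hr, with its lowest level at 6 hr and the next lowest at 24 hr. It fell 4.10-fold at 6 hr (log2 -2.04, -2.34 to -1.75), and the 6 hr value, from 119 reads, remained past 2-fold on every scale (-1.31 relative to the median, -1.12 relative to GC-rich genes). In its bin, the one with the highest GC content, it lay higher than only 3.63% of genes at 6 hr. At 1.5 hr its log2 ratio was 0.43 as deposited, -0.09 relative to the median and 1.13 relative to genes of like GC content. At 24 hr it was -0.69 as deposited, -0.86 relative to the median and 0.25 relative to genes of like GC content, so that its direction at both times depends on the scale.

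Snai1, known as an early-response repressor with a short-lived protein, had 9.65 RPKM untreated, 17.4 after 1.5 hr, 7.39 after 6 hr and 9.90 after 24 hr. Its log2 ratios were 0.85, -0.39 and 0.04. They were 0.33, 0.34 and -0.13 relative to the median coding gene and 1.35, 0.53 and 0.77 relative to genes of like GC content, so that the 1.5 hr value passed 2-fold on the last scale alone. Snai2, the neural crest factor Slug, had 5.12 RPKM untreated, 6.501 after 1.5 hr, 1.83 after 6 hr and 5.89 after 24 hr. As deposited it was low in the 6 hr library alone. It fell at 6 hr (log2 -1.49, -1.77 to -1.21), which was -0.76 relative to the median coding gene and -1.32 relative to genes of like GC content, where it lay higher than 1.61% of its bin. At 1.5 hr its log2 ratio was 0.34 as deposited, -0.17 relative to the median and -0.94 relative to genes of like GC content. The 24 hr values were 0.20, 0.04 and -0.65, so that Snai2 lay below the median of its GC bin at every time.

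Zeb1 and Zeb2 are large zinc-finger homeodomain repressors. Zeb1 had 5.42 RPKM untreated, 13.9 after 1.5 hr, 4.68 after 6 hr and 8.02 after 24 hr. It rose 2.57-fold at 1.5 hr (log2 1.36, 1.27 to 1.46). Zeb2 had 2.03 RPKM untreated, 5.96 after 1.5 hr, 2.19 after 6 hr and 4.39 after 24 hr. It rose 2.93-fold at 1.5 hr (log2 1.55, 1.44 to 1.67) and 2.16-fold at 24 hr (log2 1.11, 0.99 to 1.23). Relative to the median coding gene the 3 values were 0.85, 0.51 and 0.40 for Zeb1 and 1.03, 0.83 and 0.95 for Zeb2, of which the 1.5 hr value of Zeb2 was past 2-fold. These are transcripts of low GC content (46.1% and 40.1%), and the coding genes of their bins had medians of 1.11 and 1.39 at 1.5 hr. Relative to those genes Zeb1 stood at 0.26 and Zeb2 at 0.16 at 1.5 hr, and at -0.07 and 0.16 at 24 hr.

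Runx2 was the member that went down at every time as deposited, with 4.98 RPKM untreated, 2.18 after 1.5 hr, 2.36 after 6 hr and 1.80 after 24 hr. The reads behind these levels were 1387, 633, 577 and 592. The untreated level lay above all 3 treated levels and its counting interval (4.72 to 5.25) did not meet theirs. It fell 2.28-fold at 1.5 hr (log2 -1.19, -1.33 to -1.05), 2.11-fold at 6 hr (log2 -1.08, -1.22 to -0.94) and 2.76-fold at 24 hr (log2 -1.46, -1.61 to -1.32). Relative to the median coding gene the values were -1.71, -0.35 and -1.63, and relative to genes of like GC content they were -1.81, -0.32 and -1.71. At 1.5 and 24 hr it lay higher than 0.806% and 1.41% of its GC bin. The fall at 6 hr was therefore no larger than 2-fold on either of these scales, nor in the other 2 rows of the gene (both -0.98). The rows share most of their exons and do not show which start was used.

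**Figure D4:**
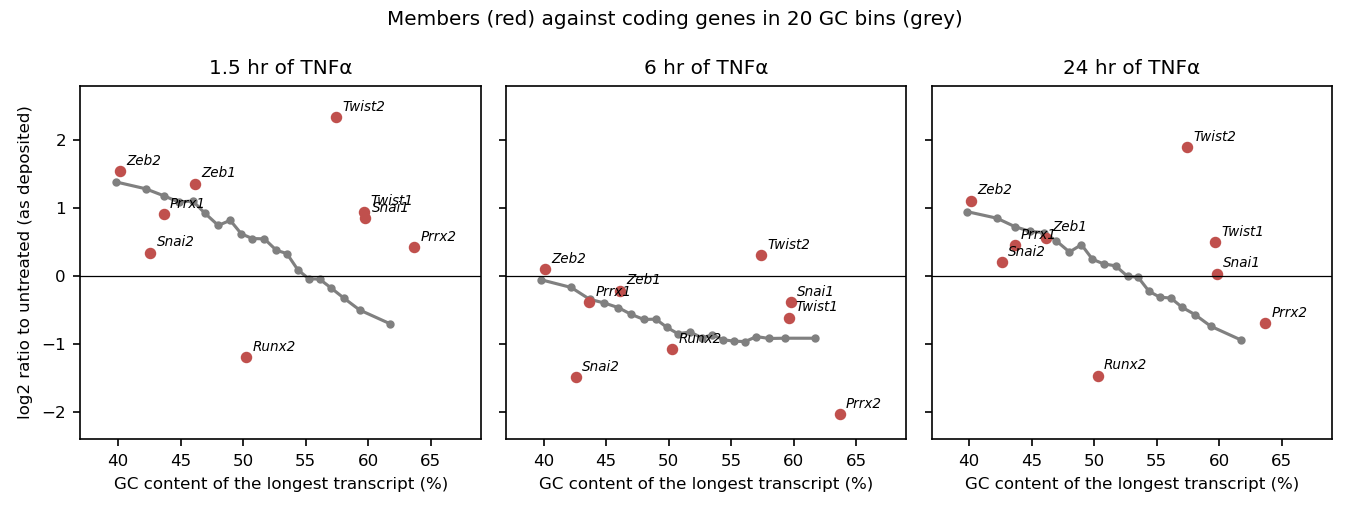
Log2 ratio to untreated as deposited (vertical axis) against GC content of the longest transcript in percent (horizontal axis) at each time. Grey points are medians of coding genes in 20 bins and red points are members; at 1.5 and 24 hr the grey line falls from left to right (1.39 to -0.70 and 0.95 to -0.94), Zeb1 and Zeb2 lie close to it, Twist2 lies far above it and Runx2 far below it.

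The ratio of 2 paralogs within a library does not depend on how the library was scaled. Twist2 had 1.93 times the RPKM of Twist1 in untreated MEFs (1.64 to 2.28), 5.04 times at 1.5 hr (4.57 to 5.58), 3.65 times at 6 hr (3.02 to 4.47) and 5.10 times at 24 hr (4.57 to 5.70). All 3 treated intervals lay above the untreated one. The transcripts have like GC content (57.4% and 59.7%), and with each compared with its own GC bin the log2 change of the ratio was 1.06, 0.90 and 1.12. The balance between these paralogs moved toward Twist2 at each time on both measures.

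Snai1 had 1.89 times the RPKM of Snai2 untreated (1.67 to 2.13), 2.68 times after 1.5 hr (2.43 to 2.96), 4.04 times after 6 hr (3.34 to 4.93) and 1.68 times after 24 hr (1.51 to 1.87). The ratio was highest at 6 hr, and the untreated and 24 hr intervals overlapped. Prrx1 had 0.856 times the RPKM of Prrx2 untreated (0.780 to 0.943), 1.20 times after 1.5 hr, 2.69 times after 6 hr (2.23 to 3.28) and 1.91 times after 24 hr (1.72 to 2.12). The columns of the Prrx pair differed by more than counting error, with 0.744 in R1 and 0.997 in R2 untreated and 1.07 and 1.37 at 1.5 hr. With the mean over all rows of a gene its ratio was 1.08 at 1.5 hr and 1.71 at 24 hr. For the Snai and Prrx pairs GC content differs (59.8% against 42.6%, and 43.6% against 63.7%). Compared with their own GC bins, the log2 change of Snai1 over Snai2 was 2.29, 1.85 and 1.43, and that of Prrx1 over Prrx2 was -1.40, 1.08 and -0.51. The Prrx pair kept its direction at 6 hr alone, and the Snai pair at 1.5 and 6 hr. Zeb1 over Zeb2 went from 2.67 to 2.34, 2.14 and 1.83, and compared with the GC bins it changed by 0.09, 0.09 and -0.24 on the log2 scale.

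**Figure D5:**
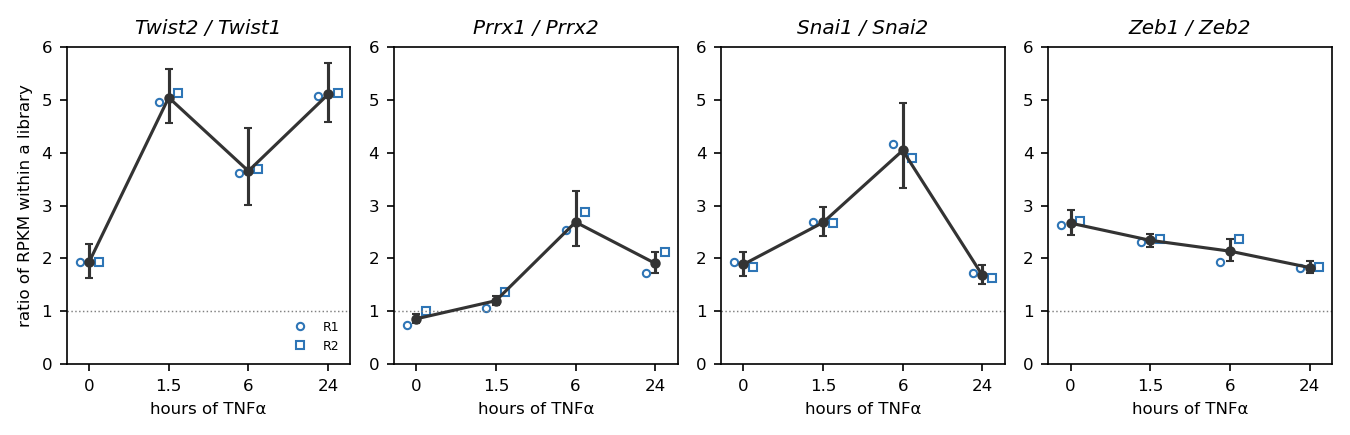
Ratio of the RPKM of 2 paralogs within a library (vertical axis, linear) against hours of TNFα. Black points are means of both columns with 95% counting intervals and open symbols are the R1 and R2 columns; Twist2 over Twist1 was 1.93 untreated and 3.65 to 5.10 after TNFα.

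The wider network of these factors was read from 7 lists of genes. The cells responded to TNFα: all 5 check genes rose at every time, among them Nfkbia, the NF-κB inhibitor IκBα, with 7.79 RPKM untreated and log2 ratios of 4.497, 3.06 and 4.18, the chemokine Ccl2 (6.60, 4.73 and 6.17) and the feedback inhibitor Tnfaip3 (5.81, 3.31 and 4.39). Of the bHLH partners and inhibitors of Twist proteins, 6 of 7 were above the median coding gene. None of them rose at any time and 3 fell at 6 hr as deposited, namely Id1 (-1.93), Id2 (-1.29) and Id3 (-1.04), inhibitors that bind bHLH proteins, where 31.2% of coding genes fell. As deposited 31.7%, 1.91% and 17.2% of coding genes rose at the 3 times. Relative to genes of like GC content 1 gene fell at each time, beside 10.7%, 3.69% and 9.19% of coding genes. The gene was Tcf4 at 1.5 hr (-1.14) and Id2 at 6 and 24 hr (-1.12 and -1.08). Tcf3, the E-protein partner of Twist, had the highest untreated level (11.4 RPKM) and log2 ratios of 0.05, -0.66 and -0.50.

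Other mesenchymal transcription factors had median log2 ratios of -0.97, -0.49 and -0.80 relative to the median coding gene. Of 28 genes, 17 were above the median level. As deposited 2 rose and 3 fell at 1.5 hr (31.7% and 8.04% of coding genes), 0 and 10 at 6 hr (1.91% and 31.2%), and 1 and 5 at 24 hr (17.2% and 12.3%). Relative to genes of like GC content 1 rose and 9 fell at 1.5 hr (10.7% and 10.7%), 0 and 5 at 6 hr (5.39% and 3.69%), and 1 and 6 at 24 hr (10.3% and 9.19%), with median log2 ratios of -1.002, -0.28 and -0.71. Tbx15 had the highest untreated level (23.2 RPKM) and log2 ratios of -0.76, 0.02 and -0.40. The limb factor Tbx5 fell at 6 hr (log2 -2.20), the nuclear receptor Nr2f1 fell at 1.5 and 24 hr (-2.13 and -1.51), and Msx1, a homeodomain factor of limb and face, went from 17.7 RPKM to 11.2, 7.11 and 4.12 (log2 -2.10 at 24 hr). Relative to genes of like GC content these values were -1.37 for Tbx5 at 6 hr, -1.63 and -0.77 for Nr2f1, and -1.54 for Msx1.

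Most epithelial genes were under the median coding gene. Of 19, 7 were listed at 0 in untreated MEFs and 4 were above the median coding gene, with Cdh3 highest at 6.58 RPKM. Cdh1 had 0.0411 RPKM untreated. As deposited 3 of these 4 fell at 6 hr, beside 31.2% of coding genes. They were Cdh3 (log2 -1.89) and the keratins Krt19 (-1.23) and Krt18 (-1.06), of which Cdh3 also fell at 24 hr (-1.24). Relative to genes of like GC content Cdh3 remained past 2-fold at both times (-1.02 and -1.22), and Krt19 and Krt18 at 6 hr did not (-0.32 and -0.10). Krt19 at 24 hr was past 2-fold higher on this scale (1.06) and not as deposited (0.49). All 11 mesenchymal genes were above the median level, with the matrix gene Sparc highest at 648 RPKM. As deposited 3 rose at 1.5 hr, 3 fell at 6 hr and 2 rose at 24 hr, which is close to the 31.7%, 31.2% and 17.2% of coding genes that did. Vim, the intermediate filament vimentin, rose at 1.5 and 24 hr (log2 1.75 and 1.49), and still did so relative to genes of like GC content (1.65 and 1.72). Thy1 and S100a4 fell at 6 hr as deposited (-1.45 and -1.44) and stood at -0.48 and -0.69 relative to genes of like GC content.

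All 17 partners and regulators were above the median level. As deposited 6 rose and 1 fell at 1.5 hr (31.7% and 8.04% of coding genes), 0 and 6 at 6 hr (1.91% and 31.2%), and 2 and 2 at 24 hr (17.2% and 12.3%). The share that rose at 1.5 hr and the share that fell at 6 hr were close to the 31.7% and 31.2% of coding genes. Hdac4, a deacetylase that binds and restrains Runx2, had the highest untreated level (12.1 RPKM) and fell at 6 and 24 hr (log2 -1.52 and -1.55). Relative to genes of like GC content it stood at -0.63 and -1.09, so that the 6 hr call was lost. Hdac1 and Hdac2, corepressors of Snai proteins, rose at 1.5 hr (1.53 and 1.73). Relative to genes of like GC content they stood at 0.90 and 0.45 at 1.5 hr. Hdac1 also rose at 24 hr as deposited (1.28) and remained past 2-fold relative to genes of like GC content (1.03). Hdac2 at 24 hr stood at 0.92 and 0.07. Of 7 Runx2 target genes, 3 were above the median level. Osteopontin (Spp1) had 461 RPKM untreated and rose at 1.5 hr (log2 1.75), and the collagenase Mmp13 rose at each time (2.60, 1.87 and 3.54). Col10a1 rose at 1.5 hr (1.14) and stood at -0.95 at 24 hr. Relative to genes of like GC content Mmp13 remained past 2-fold at each time (1.31, 2.04 and 2.69), and Spp1 and Col10a1 at 1.5 hr did not (0.57 and 0.59). Col10a1 at 24 hr was past 2-fold lower on this scale (-1.13). The bone genes Ibsp, Alpl, Bglap and Bglap2 were under the median coding gene.

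The markers of the labelled cell type were expressed, and some markers of other cell types were also above the median coding gene. All 8 fibroblast markers were above the median level, and their summed level was 2210 RPKM untreated, 2180 after 1.5 hr, 1052 after 6 hr and 1326 after 24 hr. Within it the collagen gene Col1a1 went from 1073 RPKM to 579.9, 493 and 297, and Vim from 126 to 423, 116 and 355. None of 4 endothelial markers was above the median level. Of 5 macrophage and leukocyte markers 4 were, and the summed level of the 5 was 23.9, 31.2, 8.16 and 13.0 RPKM at the 4 times, of which Cd68 made up 14.8, 20.1, 4.93 and 7.61. These sums are as deposited, and the 6 hr library was low as a whole (median log2 ratio -0.72). Relative to the median coding gene, the fibroblast markers had median log2 ratios of -0.32, -0.37 and -0.97 at the 3 treated times. The macrophage and leukocyte markers above the median level had 0.03, -0.58 and -0.61. On that scale 0 markers of either list fell 2-fold at 6 hr. Csf1r had 7.19 RPKM untreated, Itgam 1.00 and Emr1 0.641. The leukocyte gene Ptprc, the 1 marker of these 5 under the median level, had 0.326. Of 5 epithelial markers 1 was above the median level (Krt18), and the defining marker Epcam was at 0. Muscle, fat, cartilage and neural markers had 1 gene each above it, namely Des, Fabp4, Sox9 and Tubb3, with Myod1 and Adipoq at 0 untreated and Map2 not listed. The part of any of these cells in the members' changes was not tested, and in bulk RNA fewer cells of a type and less RNA per cell cannot be told apart.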

How the data were processed

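RNA-seq was done on 4 MEF libraries, 1 per time, and H3K4me3 and input ChIP-seq on untreated MEFs. The authors aligned RNA reads to mm9 with TopHat 1.1.3 and ChIP reads with Bowtie 0.12.6, and they deposited RPKM values per RefSeq transcript in 8 columns, R1 and R2 for each library. All 8 columns were used. The 24 hr sample carries a ChIP protocol in its labels, but its title and library type are RNA. The values of 19088 of the 19091 rows above 0 in every column were whole numbers of aligned bases at one transcript length (tolerance 0.001), and the most frequent smallest number was 41 bases, so reads and column totals were recovered and the deposited RPKM was divided by 41. The authors called peaks with MACS (version not given in the sources used here) on the H3K4me3 library against input. The deposited peak list gives a tag count, a score, a fold enrichment, a false discovery rate in percent and a signal (tags divided by peak length) for each peak.

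R1 and R2 (correlation of log2 values across transcripts 0.990 to 0.992) were averaged. Log2 ratios to untreated were taken without a pseudocount, and no test was made. Coding genes with a 4-library mean at or above the median (0.566 RPKM) were the background. Reads were treated as Poisson counts. Gene starts, GC content and the 200-base windows came from mm9 with GENCODE annotation, used in place of RefSeq coordinates. A peak was assigned to a start within 1 kb. Genes other than the 10 members were named by rule: in each list, the highest untreated level and the 3 largest log2 ratios past 2-fold. Genes under the median level and marker genes that are named besides these were chosen after their values were seen. The members and lists were chosen with earlier results of these data known. Alternatives were each column alone, other rows, a pseudocount, 3 scalings, other folds and floors, other peak distances and, added after seeing the data, centring by GC content and paralog ratios. Scripts ran in Python 3.11.15 with numpy 2.4.6, pandas 2.3.3, scipy 1.17.1, numba 0.67.0 and matplotlib 3.10.9, and were checked on simulated data. Of 13 promoter windows 4 are printed, and 1 is not reported here.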

Additional observations from a re-analysis of the deposited data

Results flagged for a closer look

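For 6 members the log2 ratio to untreated was above 0 at 1.5 hr and below 0 at 6 hr as deposited. The 6 hr ratio minus the 1.5 hr ratio was -1.56 for Twist1, -1.30 for Prrx1, -2.47 for Prrx2, -1.24 for Snai1, -1.83 for Snai2 and -1.58 for Zeb1. With 1 library per time this difference was not tested. The median coding gene moved the same way, from 0.52 to -0.72. Relative to it, Twist1, Prrx1, Snai1 and Zeb1 stood above 0 at both times and Prrx2 and Snai2 below 0 at both, so none of the 6 changed direction on that scale. Relative to genes of like GC content Prrx2 went from 1.13 at 1.5 hr to -1.12 at 6 hr, past 2-fold in both directions.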

How the results depend on the processing

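With 1 library per time, no replicate spread is known and only counting error has a range. No paired analysis was possible because each time had 1 library. Of 27 log2 ratios, 27 kept their sign with either column alone, with a pseudocount, with the mean over rows and with the lowest row, 23 when scaled to the summed value, 20 with the median of ratios, 20 with a trimmed mean and 18 when centred by GC content, an alternative added after seeing the data. No called ratio reversed. At 1.5 hr the count of members higher was 6 at 1.5-fold and 1 at 3-fold, and the count lower was 0 at 3-fold and 0 with the floor at the 75th percentile. At 6 hr the count higher was 1 with the summed value, the median, the trimmed mean and GC centring, and the count lower was 1 with the summed value, the median, the trimmed mean and at 3-fold. At 24 hr the count higher was 1 with the median, the trimmed mean and at 3-fold, and the count lower was 2 at 1.5-fold, 0 at 3-fold and 0 with the floor at the 75th percentile. The shares of coding genes at the other folds, the higher floor, the summed value and the trimmed mean were not counted. Those member counts thus have no background beside them. As deposited, 68.2%, 13.7% and 56.7% of the 10102 coding genes lay above 0 at the 3 times. The scalings subtract a shift of the whole library from every ratio (at 6 hr -0.87 for the summed value and -0.72 for the median), which raises the 6 hr ratios. The cause of the differences between libraries in GC content was not tested. The number of members with a peak at the first start was 7 at 1 kb and 5 kb and 6 at a fold enrichment of 40 or more. Of coding genes at or above the median level, 85.2%, 87.2% and 57.8% had one at these settings.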
